A study of Mus musculus with 24 samples.

Results

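The Dppa genes *Dppa2*, *Dppa3*, *Dppa4* and *Dppa5a* were followed in RNA-seq of differentiating male mouse embryonic stem cells (mESCs) in which a subunit of the BAF chromatin remodelling complex was knocked down. The members were the 4 entries of the deposited table with these names, of 25965 entries in all. Male C57/Bl6 mESC lines were expanded in 2i medium, which holds cells in the naive pluripotent state, and were then weaned into differentiation medium. Every culture, controls included, was transduced with a virus carrying a short hairpin RNA (shRNA) on day 2 and put under puromycin on day 3. RNA was taken on days 4, 5, 6 and 7. The groups were a hairpin against *Smarcc1* (hairpins 6 and 7, 8 libraries), a hairpin against *Smarca4* (hairpins 4 and 6, 8 libraries) and the nonsilencing control hairpin (Nons, 4 libraries), with 1 library per hairpin and day. The Nons libraries all belonged to Nons replicate 1, and the 4 samples of Nons replicate 2 were not analysed here. A genotype label of the Smarca4 samples reads as a Smarcc knockdown, and their titles, which name Smarca4, were followed. No source says that the hairpins of a group came from separate cell lines, so p-values measure the spread between hairpins only. Except where a replicate block is named, the days of a hairpin series were taken as independent.

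Dppa stands for developmental pluripotency associated, a name given to genes expressed in pluripotent cells and the early embryo. DPPA2 and DPPA4 are partner proteins with a SAP DNA-binding domain that act together at gene promoters and are known for activating *Dux* and the genes of the 2-cell-like state. DPPA3, also called Stella or PGC7, protects the maternal genome of the zygote from loss of methylation and in other settings holds the methylation factor UHRF1 away from chromatin. DPPA5A, also called ESG1, is an RNA-binding protein with a KH domain that is abundant in pluripotent cells. SMARCA4, or BRG1, is the ATPase of BAF, and SMARCC1, or BAF155, is one of its core scaffold subunits.

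The guide strands of the 5 hairpins are shown because they define the groups being compared. They are written 5′ to 3′ as the strand complementary to the target, with the seed, bases 2 to 8, in capitals.
Nons: cTTACTCTcgcccaagcgagag
Smarcc1 hairpin 6: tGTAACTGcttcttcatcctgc
Smarcc1 hairpin 7: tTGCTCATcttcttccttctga
Smarca4 hairpin 4: tTTATTACtgtctgactccagt
Smarca4 hairpin 6: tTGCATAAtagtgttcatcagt
Matched over all 22 bases to the GENCODE M21 transcripts, both Smarcc1 guides found only *Smarcc1* and both Smarca4 guides only *Smarca4*, while the Nons guide found no transcript. On mm10, Smarcc1 hairpin 6 targeted coding sequence in exon 13 of 29 (chr9:110177472-110177493, plus strand) and hairpin 7 coding sequence in exon 11 (chr9:110173911-110173932). Smarca4 hairpin 6 targeted coding sequence in exon 22 of 34 (chr9:21670504-21670525, plus strand) and hairpin 4 the untranslated part of exon 34, the last (chr9:21703327-21703348). None of the 5 guides matched a transcript of a Dppa gene over its full length.

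The values were log2 rpm, where rpm is a gene's reads per 1000000 reads of the library, and levels are given in rpm. Library totals ranged from 6829596 to 27472885 reads with a median of 20414352.5, and the smallest, Smarca4 hairpin 4 on day 5, was followed by one of 15717152. *Smarcc1* was at 23.7% to 60.1% of same-day Nons in the 8 Smarcc1 libraries, and *Smarca4* at 21.6% to 55.3% in the 8 Smarca4 libraries. All 4 Dppa genes passed the filter on low values, and every value rested on at least 157 reads, far above the 3 reads (0.109 to 0.439 rpm) taken as the floor. Markers of pluripotent cells were present in every library, with *Pou5f1* at 130.7 rpm or more. Of 6 primitive endoderm markers 3 passed the filter, and their summed level over all 6 was 4.18 to 42.8 rpm. The 5 fibroblast markers summed to 5.17 to 119 rpm, with *Postn* at 0 reads in 13 of 20 libraries.

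*Dppa4* and *Dppa2* are neighbours on mouse chromosome 16, on the plus strand, at chr16:48283735-48294292 and chr16:48310477-48319723 in the table's mm10 coordinates, with 16184 bases between them. *Dppa3* lies at chr6:122626410-122630272 on the plus strand and *Dppa5a* at chr9:78367052-78368177 on the minus strand. All are protein coding in GENCODE M21, and the spans of *Dppa3* and *Dppa5a* are the same there, while those of *Dppa2* and *Dppa4* differ at their ends. Each has copies elsewhere in the genome. Of the 75-base windows of the longest coding transcript, the length of a read, 25.7% in *Dppa2*, 23.7% in *Dppa4*, 4.08% in *Dppa3* and 19.4% in *Dppa5a* also occur in a transcript of another gene, most of them unnamed gene models. The treatment of reads with several matches is not given in the sources used here, so a part of each level is uncertain. The unnamed and pseudogene copies with an entry in the table were low. *Gm9788*, which holds 24.7% of the *Dppa2* windows, did not exceed 1.96 rpm. *Gm5501*, which holds 3.77% of the *Dppa4* windows, did not exceed 1.48 rpm. *Gm14058*, which holds 19.9% of the *Dppa4* windows, and *Gm8023*, which holds 15.5% of the *Dppa2* windows, had no entry, so their levels are unknown. *Dppa5b*, a pseudogene copy of *Dppa5a*, had 0 reads in 15 of 20 libraries and at most 0.185 rpm. *Pigp*, a gene of GPI anchor synthesis that holds 4.04% of the *Dppa5a* windows, was at 11.9 to 37.2 rpm.

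Compared as rpm per kilobase of annotated exon, *Dppa5a* was by far the most abundant of the 4, with a median level of 1164 over the 20 libraries and a range of 472 to 2733. *Dppa4* followed with a median level of 73.5 (20.97 to 143), then *Dppa3* with 41.4 (9.02 to 106) and *Dppa2* with 25.1 (3.42 to 73.7). The lowest *Dppa5a* level thus exceeded the highest of any other member, while the ranges of the other 3 overlapped. The order of those 3 also moved with time, as *Dppa2* had a median level of 68.2 against 12.8 for *Dppa3* on day 4 and of 11.6 against 50.9 on day 7. The exon length was that of GENCODE M21, where *Dppa2* starts at 48303908, while its deposited entry starts at 48310477. The length behind its reads may therefore differ, and its level per kilobase and its rank beside *Dppa3* are uncertain.

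The first question was how each Dppa gene behaved as the cells differentiated. Averaged over the groups, *Dppa2* and *Dppa4* fell, *Dppa3* rose, and *Dppa5a* did not pass the test between days 4 and 7. These were calls of limma on the log2 rpm values of all 20 libraries, averaged over Nons, Smarcc1 and Smarca4. Of the 13296 genes tested 64.5% were called in this comparison (35.7% higher, 28.8% lower), so 3 of 4 members called is near the background. The average joins unlike courses. The log2 change of *Dppa3* from day 4 to day 7 was 0.43 in Nons and 1.65 to 2.40 in the knockdown series. That of *Dppa5a* was -1.35 in Nons and -0.40 to 0.015 in the knockdown series.

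*Dppa2* showed the steepest fall. In Nons it stood at 119.9, 74.5, 18.3 and 8.37 rpm on days 4, 5, 6 and 7. In the Smarcc1 libraries it was at 180.3, 127, 48.5 and 31.2 rpm with hairpin 6 and at 167, 81.7, 35.9 and 27.3 rpm with hairpin 7. In the Smarca4 libraries it was at 177, 94.6, 45.7 and 31.0 rpm with hairpin 4 and at 162, 106, 36.5 and 28.4 rpm with hairpin 6. Every series was lower on each later day, and Nons was the lowest of the 5 series on all 4 days. The fitted log2 change from day 4 to day 7 was -2.98 (SE 0.153, adjusted p = 7.18e-09), a 7.87-fold fall (95% interval of the log2 change -3.31 to -2.64). It ranked 209 from the most negative change among the genes tested. Each daily step also passed, with log2 changes of -0.74 from day 4 to 5 (SE 0.153, adjusted p = 0.00267), -1.54 from day 5 to 6 (adjusted p = 2.04e-05) and -0.70 from day 6 to 7 (adjusted p = 0.00685). The share of genes called was 38.7%, 32.3% and 27.5% in these 3 steps.

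*Dppa4* followed the same order at a shallower slope. Its Nons levels were 159, 112, 57.3 and 34.9 rpm on days 4 to 7. With Smarcc1 hairpins 6 and 7 they were 238, 203, 132 and 81.8 rpm, and 213, 139, 95.8 and 70.7 rpm. With Smarca4 hairpins 4 and 6 they were 203, 136, 84.3 and 73.6 rpm, and 207, 179, 89.8 and 69.8 rpm. Here too each series was lower on each later day, and the Nons library was below the 4 knockdown libraries on every day. The log2 change from day 4 to day 7 was -1.76 (SE 0.148, adjusted p = 4.42e-07), a 3.38-fold fall. The steps gave -0.44 (adjusted p = 0.0330), -0.80 (adjusted p = 0.00155) and -0.52 (adjusted p = 0.0228). The first of these lost its call with each library centred on its median gene (adjusted p = 0.125) and without the small day 5 library of Smarca4 hairpin 4 (adjusted p = 0.0586). The last was lost without Smarcc1 hairpin 6 or either Smarca4 hairpin (adjusted p up to 0.141), as was the last step of *Dppa2* without either Smarca4 hairpin (adjusted p up to 0.0634).

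*Dppa3* went the other way. In Nons it was at 8.04, 19.95, 26.8 and 10.8 rpm on days 4, 5, 6 and 7. With Smarcc1 hairpin 6 it reached 12.5, 74.6, 94.3 and 66.1 rpm, and with hairpin 7 it reached 11.4, 34.0, 56.3 and 55.8 rpm. With Smarca4 hairpin 4 the levels were 9.77, 26.9, 46.3 and 39.9 rpm, and with hairpin 6 they were 14.4, 46.5, 78.0 and 45.4 rpm. All 5 series were highest on day 6, at 3.34 times day 4 in Nons and at 4.74 to 7.54 times day 4 in the knockdown series. The log2 change from day 4 to day 5 was 1.65 (SE 0.266, adjusted p = 0.000507), that from day 4 to day 7 was 1.54 (SE 0.266, adjusted p = 0.000234), and both were rises. From day 5 to day 6 the difference was 0.58 (adjusted p = 0.118) and from day 6 to day 7 it was -0.69 (adjusted p = 0.0686), neither of which passed. When the series was entered as a replicate block, both of these steps did pass (adjusted p = 0.0449 and 0.0221). The share of all genes called in these steps was 39.2% and 38.4% with the block, and 32.3% and 27.5% without it.

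*Dppa5a* combined the highest level with the smallest fitted difference between days 7 and 4 averaged over the groups. In Nons it was at 746, 627, 705 and 292 rpm on days 4 to 7. With Smarcc1 hairpin 6 it was at 705, 1692, 1601 and 622 rpm, and with hairpin 7 at 724, 919.6, 889.9 and 549 rpm. With Smarca4 hairpin 4 it was at 617, 913, 741 and 624 rpm, and with hairpin 6 at 717, 1565, 1458 and 711 rpm. On day 4 the 5 libraries lay close together, with Nons the highest, and on days 5, 6 and 7 Nons was the lowest. The log2 difference between days 7 and 4 was -0.55 (SE 0.254, 95% interval -1.10 to 0.0039, adjusted p = 0.0757). It passed with the replicate block (adjusted p = 0.0313), with centring (adjusted p = 0.0475) and with quantile normalization (adjusted p = 0.0187). The block called 68.7% of all genes here, against 64.5% as fitted. Centring called 8733 and quantile normalization 8493 of 13296 genes. Only the step from day 6 to day 7 passed as fitted, with a fall of 0.98 on the log2 scale (SE 0.254, adjusted p = 0.0154; 0.0943 without Smarca4 hairpin 6), while the steps from day 4 to 5 (0.47, adjusted p = 0.161) and day 5 to 6 (-0.03, adjusted p = 0.938) did not.

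**Figure D1:**
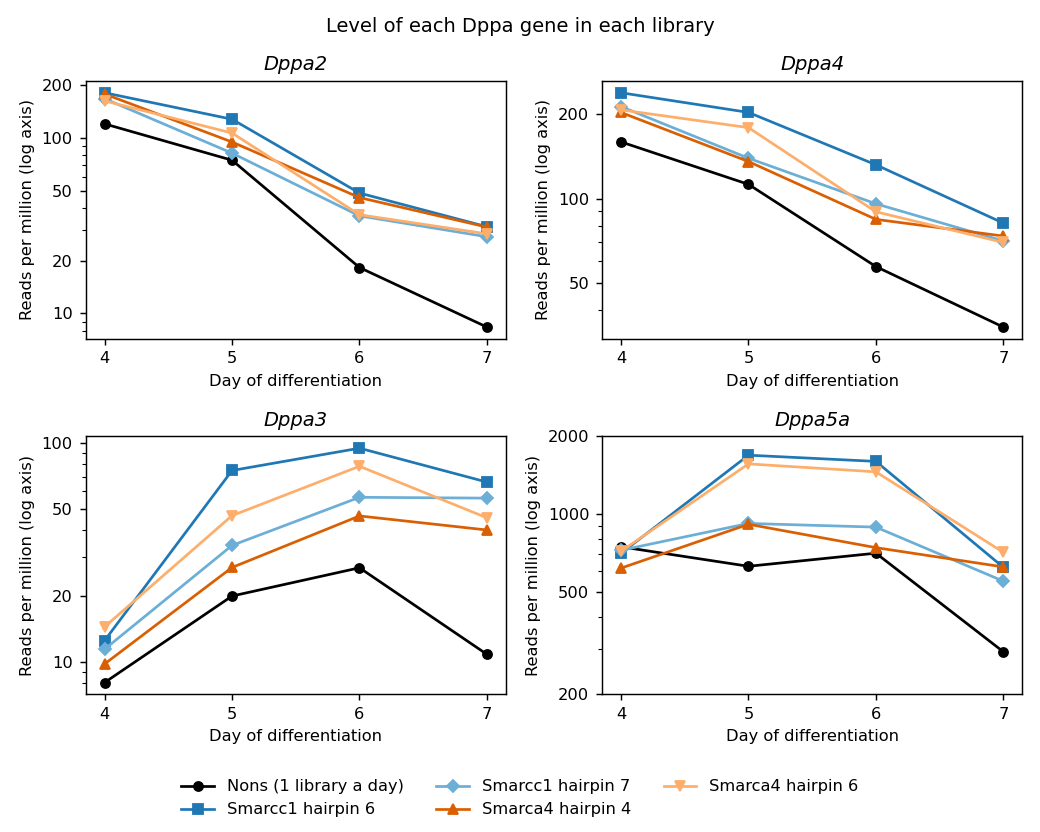
Level of each Dppa gene in rpm (log axis) against day of differentiation, with 1 line per hairpin series and 1 point per library. *Dppa2* and *Dppa4* are lower on each later day in every series, *Dppa3* is highest on day 6 in every series, and the black Nons line is the lowest except for *Dppa5a* on day 4.

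The hairpins of a group did not always lie together. For *Dppa5a* on days 5 and 6, Smarcc1 hairpin 6 and Smarca4 hairpin 6 were at 1458 to 1692 rpm, and Smarcc1 hairpin 7 and Smarca4 hairpin 4 were at 741 to 919.6 rpm. The gap between the hairpins of a gene was 0.78 to 0.98 on the log2 scale on those days, against 0.04 to 0.22 on day 4 and 0.18 to 0.19 on day 7. *Dppa3* split in the same order on days 5 and 6, by 0.74 to 1.14 on the log2 scale. For *Dppa2* and *Dppa4* the gap was at most 0.64 in any pair. The hairpin number is a name, and the 2 hairpins numbered 6 target different genes. The hairpins with more *Dppa5a* also had less of their target on days 5 and 6. *Smarcc1* was at 23.7% and 34.3% of Nons with hairpin 6, and at 42.0% and 60.1% with hairpin 7. *Smarca4* was at 24.1% and 21.6% with hairpin 6, and at 32.8% and 55.3% with hairpin 4. On days 4 and 7 the targets were at 36.3% to 47.2% and at 25.2% to 28.3%. Whether the depth of knockdown bears on these gaps was not tested.

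The second question was how these genes differed between knockdown of a BAF subunit and Nons. *Dppa2*, *Dppa4* and *Dppa3* were higher than in Nons in both knockdowns. All 8 Smarcc1 libraries and all 8 Smarca4 libraries were above the Nons library of their day for each of these 3 genes, and for *Dppa5a* this held for 6 of 8 libraries in each group, the day 4 libraries being the exceptions. Both contrasts use the same 4 Nons libraries and are therefore not independent of each other.

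Averaged over days, *Dppa2* was 1.99-fold higher with Smarcc1 knockdown (log2 difference 1.00, SE 0.141, adjusted p = 0.000635) and 1.97-fold higher with Smarca4 knockdown (0.98, SE 0.141, adjusted p = 0.00133). *Dppa3* was 2.75-fold higher with Smarcc1 knockdown (log2 difference 1.46, SE 0.245, adjusted p = 0.00197) and 2.19-fold higher with Smarca4 knockdown (1.13, SE 0.245, adjusted p = 0.0157). *Dppa4* was 1.74-fold higher with Smarcc1 knockdown (log2 difference 0.79, SE 0.136, adjusted p = 0.00222) and 1.54-fold higher with Smarca4 knockdown (0.62, SE 0.136, adjusted p = 0.0169). Thus 3 of 4 members passed in each contrast, where 10.6% of all genes were called for Smarcc1 (7.54% higher) and 6.71% for Smarca4 (4.75% higher). *Dppa5a* had log2 differences of 0.67 (SE 0.234, adjusted p = 0.0940) and 0.63 (SE 0.234, adjusted p = 0.148), whose unadjusted 95% intervals were 0.17 to 1.18 and 0.12 to 1.13, and both passed under quantile normalization (adjusted p = 0.0104 and 0.0364). With a hairpin left out they ranged from 0.44 (without Smarcc1 hairpin 6) to 0.90 (without hairpin 7) for Smarcc1 and from 0.36 (without Smarca4 hairpin 6) to 0.90 (without hairpin 4) for Smarca4. Of the genes called, 71.0% were higher for Smarcc1 and 70.7% for Smarca4, shares that became 53.7% and 52.9% under quantile normalization.

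The Smarcc1 calls of *Dppa2* and *Dppa4* held under all 13 alternatives, as did the Smarca4 call of *Dppa2*. With day as a straight line in each group, *Dppa3* lost its call for Smarcc1 (adjusted p = 0.0551) and Smarca4 (adjusted p = 0.217). Its differences stayed at 1.46 and 1.13, with an SE of 0.425 in place of 0.245. A straight line cannot follow a course that is highest on day 6. With the replicate block, the Smarca4 calls of *Dppa3* (adjusted p = 0.0634) and *Dppa4* (adjusted p = 0.0857) were lost, where 1.94% of all genes were called. Without Smarca4 hairpin 6 the *Dppa3* difference was 0.85 (adjusted p = 0.204), and *Dppa4* lost its Smarca4 call without hairpin 4 (adjusted p = 0.102) or hairpin 6 (adjusted p = 0.180). Each contrast rests on a single Nons series. A trait of that series or of the control hairpin therefore cannot be told apart from an effect of knockdown.

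**Figure D2:**
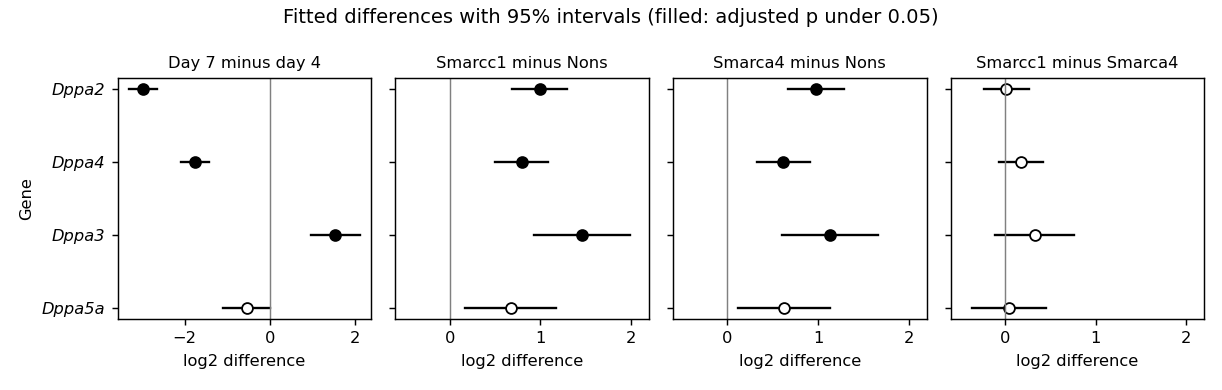
Fitted log2 difference (point) and 95% interval (line) of each Dppa gene in 4 comparisons, with filled points for an adjusted p under 0.05. The left panel has its own scale. *Dppa2*, *Dppa4* and *Dppa3* are filled and above 0 in both knockdown panels, and no gene is filled in the comparison of the knockdowns with each other.

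The fitted difference from Nons was largest on day 7 for *Dppa2* and *Dppa3* in both knockdowns, and smallest on day 5 for *Dppa2* and on day 4 for *Dppa3*. On day 4 the knockdown libraries held 1.35 to 1.504 times the *Dppa2* of Nons, and on day 7 they held 3.26 to 3.72 times, with 1.10 to 1.71 times on day 5. For *Dppa3* these ranges were 1.22 to 1.80 times on day 4 and 3.69 to 6.11 times on day 7. *Dppa4* went from 1.27 to 1.497 times on day 4 to 2.00 to 2.35 times on day 7, and *Dppa5a* from 0.827 to 0.970 times to 1.88 to 2.43 times. On both days the 4 knockdown libraries therefore lay on the same side of Nons for every member. Taken within series, *Dppa2* on day 7 was at 6.98% of its day 4 level in Nons and at 16.4% to 17.5% in the knockdown series. For *Dppa4* the remaining share was 21.9% in Nons and 33.2% to 36.3% with knockdown, and for *Dppa5a* it was 39.2% and 75.9% to 101%. *Dppa3* on day 7 was at 134% of day 4 in Nons and at 314% to 528% with knockdown.

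Single days, where 2 hairpin libraries met 1 Nons library assumed to vary like the others, gave few calls. On day 7 *Dppa2* passed for Smarcc1 (log2 difference 1.80, SE 0.281, adjusted p = 0.00287) and for Smarca4 (1.83, SE 0.281, adjusted p = 0.00745), with 4.35% and 1.59% of all genes called. *Dppa3* (2.49, SE 0.489, adjusted p = 0.0109) and *Dppa4* (1.13, SE 0.271, adjusted p = 0.0341) passed for Smarcc1 on day 7 and had adjusted p of 0.0729 and 0.0896 for Smarca4. Without either Smarca4 hairpin the Smarca4 call of *Dppa2* was lost (adjusted p up to 0.160), the Smarcc1 call of *Dppa3* was lost without Smarcc1 hairpin 6 (adjusted p = 0.0583), and the Smarcc1 call of *Dppa4* without any of the 4 hairpins (adjusted p up to 0.146). On day 6 only *Dppa2* passed, for Smarcc1 (1.19, SE 0.281, adjusted p = 0.0408, 2.84% of genes called, lost without any of the 4 hairpins), and none did for Smarca4 (0.97% of genes called). On day 5 no member passed (0.143% of all genes were called for Smarcc1 and 0 genes for Smarca4). Without the small Smarca4 hairpin 4 library of that day, hairpin 6 alone met 1 Nons library, so only differences are given. They were 0.51 for *Dppa2*, 0.67 for *Dppa4*, 1.22 for *Dppa3* and 1.32 for *Dppa5a* on the log2 scale. Leaving out a hairpin of the compared knockdown likewise left 1 library against 1 on any single day. Limma called 0 genes on day 4 for either knockdown. The counts at an unadjusted p under 0.05 were 614 and 313 genes on day 4 for Smarcc1 and Smarca4 and 1144 genes for Smarca4 on day 5.

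The change from day 4 to day 7 was compared with that in Nons directly. For *Dppa2* the change was less negative by 1.27 (SE 0.397, 95% interval 0.41 to 2.13) with Smarcc1 and by 1.33 (SE 0.397, 95% interval 0.47 to 2.19) with Smarca4 on the log2 scale, and neither passed adjustment (adjusted p = 0.260 and 0.552). For *Dppa3* the differences in change were 1.92 (SE 0.692, adjusted p = 0.388) and 1.41 (SE 0.692, adjusted p = 1.00). Those of *Dppa4* and *Dppa5a* were 0.63 to 1.35 and did not pass either. In these contrasts 0.459% and 0.0827% of genes were called, so a widening of the gap to Nons over time is described here and not shown by the test.

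**Figure D3:**
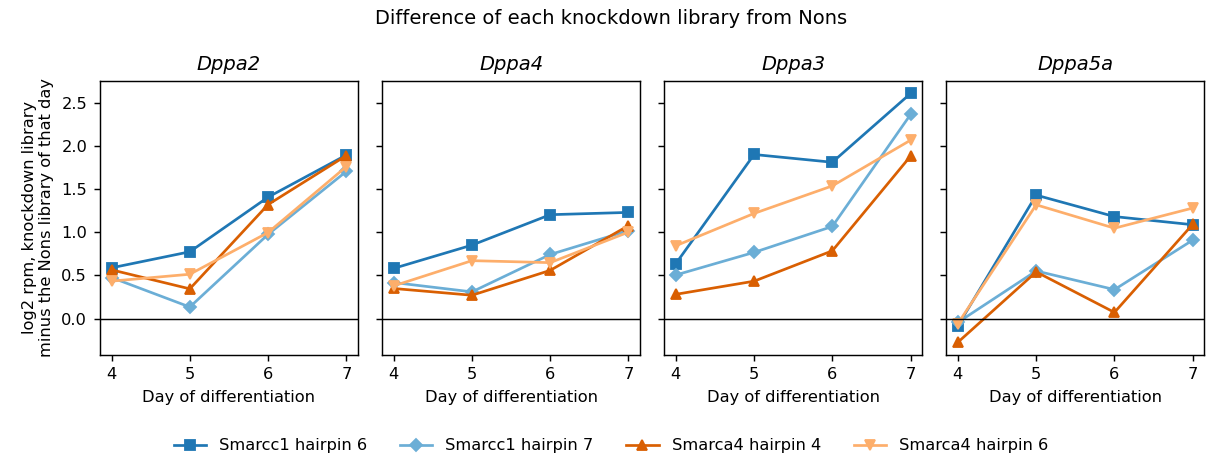
Log2 rpm of each knockdown library minus the Nons library of the same day, against day of differentiation, with 1 line per hairpin and a line at 0. Points for *Dppa2*, *Dppa4* and *Dppa3* all lie above 0, and those for *Dppa5a* lie below 0 on day 4 and above it afterwards.

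The knockdowns were then compared with each other, which does not involve Nons. No Dppa gene passed, in a contrast where 4.09% of all genes did. The log2 differences, Smarcc1 minus Smarca4, were 0.02 for *Dppa2* (95% interval -0.23 to 0.26, adjusted p = 0.972), 0.18 for *Dppa4* (-0.06 to 0.42, adjusted p = 0.500), 0.33 for *Dppa3* (-0.11 to 0.76, adjusted p = 0.482) and 0.04 for *Dppa5a* (-0.37 to 0.46, adjusted p = 0.952). A difference of up to 1.69-fold in *Dppa3* lies within these intervals. In the order of levels averaged over days, Nons was thus lowest and the 2 knockdowns did not differ beyond the spread of their hairpins.

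*Dppa2* and *Dppa4* kept different proportions over time. The log2 rpm of *Dppa4* minus that of *Dppa2* in Nons was 0.41, 0.59, 1.65 and 2.06 on days 4, 5, 6 and 7. In the knockdown libraries it was 0.19 to 0.40 on day 4, 0.52 to 0.77 on day 5, 0.89 to 1.45 on day 6 and 1.25 to 1.39 on day 7. Nons was outside the knockdown range on days 4, 6 and 7 and inside it on day 5, and these differences were not tested.

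**Figure D4:**
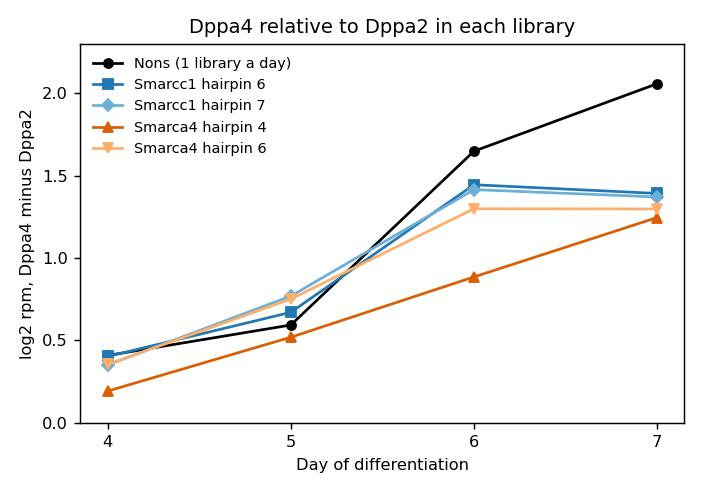
Log2 rpm of *Dppa4* minus log2 rpm of *Dppa2* in each library against day of differentiation, with 1 line per hairpin series. The Nons line ends at 2.06 on day 7, above the knockdown series at 1.25 to 1.39.

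The genes whose levels most resembled each member's were found by Pearson's correlation of log2 rpm over the 20 libraries, which share days and hairpin series. For *Dppa2* they were *Ccnb1ip1* (r = 0.98), *Dppa4* (0.98) and *Morc1* (0.98), the last a gene of the germ line. For *Dppa4* they were *Morc1* (0.98), *Lrr1* (0.98) and *Rpl10l* (0.98), and *Dppa2* ranked 4. *Dppa3* was nearest to *Chpt1* (0.94), *4930583H14Rik* (0.94) and *Rdm1* (0.93), and *Dppa5a* to *2610524H06Rik* (0.92), *Jtb* (0.91) and *Trappc2l* (0.88). Over all libraries *Dppa3* had r = -0.35 with *Dppa2* and r = -0.25 with *Dppa4*. It ranked 8195 and 7650 from the highest among the 13295 genes correlated with each, so many genes had lower values. Once the mean of each day was subtracted, the same pairs gave r = 0.88 and r = 0.94, and *Dppa3* and *Dppa5a* gave r = 0.87.

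Within days the nearest genes were others. *Dppa2* was then nearest to *Crlf3* (0.94), *Zfp42* (0.93), the pluripotency marker also called Rex1, and *Cyth4* (0.93). *Dppa4* was nearest to *1700029P11Rik* (0.97), *Cox7b2* (0.95) and *Ifitm1* (0.95), and *Dppa3* to *Cox7b2* (0.96), *Lrr1* (0.96) and *Rpl10l* (0.95). *Dppa5a* was nearest to *Gtsf1l* (0.95), *BC051226* (0.93) and *2410076I21Rik* (0.91). Each day holds 1 Nons and 4 knockdown libraries, so these values mix the distance of Nons from the rest with the gaps between hairpins.

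Of 19 other entries within 100 kb of a member 11 were tested. From day 4 to day 7, 8 of these fell and 2 rose, where 28.8% of all genes fell and 35.7% rose. With Smarcc1 knockdown 6 were higher and with Smarca4 knockdown 3, and 0 were lower in either. Of all genes 7.54% and 4.75% were higher in these 2 contrasts, and 3.08% and 1.96% were lower. *Gm7204*, the only other entry near *Dppa2* and *Dppa4*, fell from day 4 to day 7 (log2 change -0.99, adjusted p = 0.000220) and had log2 differences of -0.04 and -0.14 in the 2 knockdowns (adjusted p = 0.908 and 0.696). Near *Dppa3*, *Apobec1*, a cytidine deaminase 23965 bases away, rose from day 4 to day 7 (1.40, adjusted p = 3.87e-05) and was higher with Smarcc1 knockdown (0.87, adjusted p = 0.00755) and with Smarca4 knockdown (0.90, adjusted p = 0.0103). *Gdf3*, a ligand of the TGF-beta family 16322 bases away, fell by 2.63 on the log2 scale (adjusted p = 5.20e-08), and was higher with Smarcc1 knockdown (0.65, adjusted p = 0.0190) and at -0.07 with Smarca4 knockdown (adjusted p = 0.856). The difference between the knockdowns passed for *Gdf3* (0.72, adjusted p = 0.00894). *Nanog*, the pluripotency factor 77216 bases away, fell from day 4 to day 7 (-0.68, adjusted p = 0.00286) and was higher in both knockdowns (1.09, adjusted p = 0.000591, and 0.84, adjusted p = 0.00554). *Slc2a3*, a glucose transporter on the same side of *Dppa3* as *Nanog*, rose by day 7 (2.91, adjusted p = 5.75e-08) and had differences of -0.02 and -0.09 in the knockdowns. *Mfap5*, a microfibril gene, fell (-1.73, adjusted p = 1.89e-05) and had differences of 0.62 in each knockdown (adjusted p = 0.0786 and 0.0995).

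Near *Dppa5a*, *Ooep*, another KH-domain gene 7931 bases away, fell from day 4 to day 7 (log2 change -1.85, adjusted p = 4.16e-05). It was higher with Smarcc1 knockdown (1.37, adjusted p = 0.00263) and had a difference of 0.74 with Smarca4 knockdown (adjusted p = 0.0913). *Ddx43*, a helicase gene, likewise fell (-2.11, adjusted p = 1.71e-07), with differences of 0.67 (adjusted p = 0.0108) and 0.43 (adjusted p = 0.110) in the knockdowns. *E330016A19Rik*, at 0.373 to 4.098 rpm, fell (-1.63, adjusted p = 5.54e-05) and was higher with Smarcc1 (1.37, adjusted p = 0.00142) and with Smarca4 knockdown (1.12, adjusted p = 0.00879). *Mto1*, a gene of mitochondrial tRNA modification, fell (-0.95, adjusted p = 1.89e-05) with differences of 0.17 and 0.02 in the knockdowns, and *Gm17324*, which overlaps it, passed in none of these comparisons.

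The other genes of the pathways around the members were described by lists. Of 16 naive pluripotency genes 15 were tested, and 12 fell and 0 rose from day 4 to day 7, where 28.8% of all genes fell and 35.7% rose. Their median log2 change was -2.21 against 0.08 over all genes tested. With Smarcc1 knockdown 9 of the 15 were higher and 0 lower (median 0.83, all genes 0.06), where 7.54% of all genes were higher. With Smarca4 knockdown 6 were higher and 0 lower (median 0.69, all genes 0.06), where 4.75% of all genes were higher. The members with the lowest p were *Klf2* (2.12, adjusted p = 8.74e-06), *Nr5a2* (2.37, adjusted p = 5.86e-05) and *Esrrb* (1.84, adjusted p = 6.90e-05) for Smarcc1, all transcription factors of the naive state. Between the knockdowns 6 of these genes were higher with Smarcc1, *Nr5a2* (1.42, adjusted p = 0.00148) and *Klf4* (1.11, adjusted p = 0.00234) among them, where 2.55% of all genes were higher. Among the pluripotent cell markers *Pou5f1*, *Sox2*, *Nanog*, *Zfp42* and *Esrrb*, all 5 fell by day 7, while 4 were higher with Smarcc1 and 3 with Smarca4 knockdown. Their summed level was 359 to 2046 rpm in Nons, 508 to 2168 rpm in the Smarcc1 libraries and 326 to 2129 rpm in the Smarca4 libraries. *Pou5f1*, however, had differences of 0.05 (adjusted p = 0.899) and -0.51 (adjusted p = 0.122) in the Smarcc1 and Smarca4 contrasts, and *Sox2* one of 0.07 with Smarca4 (adjusted p = 0.799). Of 3 primitive endoderm markers tested, *Gata4* was higher in both knockdowns (1.14, adjusted p = 0.00652, and 0.89, adjusted p = 0.0383) and *Pdgfra* with Smarcc1 (1.38, adjusted p = 0.00527), and the 6 markers summed to 5.42 to 40.4 rpm in Nons, 7.17 to 42.8 rpm with Smarcc1 and 4.18 to 35.4 rpm with Smarca4. Of 3 fibroblast markers tested, *Col1a1* was higher with Smarcc1 (1.32, adjusted p = 0.0423) and 0 with Smarca4, and the 5 markers summed to 6.81 to 50.5 rpm, 5.17 to 119 rpm and 5.63 to 42.6 rpm in the same order. The part of any of these markers in the differences of *Dppa2*, *Dppa3* and *Dppa4* was not tested, and in bulk RNA more such cells and more RNA per cell cannot be told apart.

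Genes that DPPA2 and DPPA4 are known to activate, with others of the 2-cell-like state, were mostly low. Of 22 listed, 13 had an entry of that name and 9 were tested. *Dux* had no entry under that name or as *Duxf3*, so its level is unknown. From day 4 to day 7, 4 rose and 1 fell (median 0.43), where 35.7% of all genes rose and 28.8% fell, so the number called is no more than the background. The 3 with the lowest p were *Syce1* (-2.05, adjusted p = 2.05e-07), *Tcstv1* (1.61, adjusted p = 9.17e-06) and *Tcstv3* (1.18, adjusted p = 0.0134). With Smarcc1 knockdown 1 of 9 was higher, *Syce1*, a gene of the meiotic synaptonemal complex (1.01, adjusted p = 0.000689). With Smarca4 knockdown 2 of 9 were higher, *Syce1* (0.79, adjusted p = 0.00625) and *Zscan4d* (0.93, adjusted p = 0.0441), and none differed between the knockdowns. The median differences from Nons were 0.39 and 0.63, and 7.54% and 4.75% of all genes were higher in these contrasts. *Zscan4* and *Tcstv* genes are near-identical copies whose reads may be split, so their values are uncertain.

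DNA methylation genes around DPPA3 fell with *Dppa2* and *Dppa4* and not with *Dppa3*. Of 11 tested, 9 fell and 0 rose from day 4 to day 7 (median -1.74), where 28.8% of all genes fell and 35.7% rose. Among those that fell were *Tet2* (-3.43, adjusted p = 1.91e-08) and *Dnmt3a* (-3.05, adjusted p = 2.12e-08). *Uhrf1*, the partner that DPPA3 binds, fell by 1.74 on the log2 scale (adjusted p = 1.41e-06). With Smarcc1 knockdown 4 were higher and with Smarca4 knockdown 2 were higher, none lower, with medians of 0.52 and 0.41. The shares of all genes that were higher were 7.54% and 4.75%. *Dnmt3l*, the cofactor of the de novo methyltransferases, was higher in both (0.98, adjusted p = 0.000326, and 1.11, adjusted p = 0.000394). *Uhrf1* had differences of 0.41 (adjusted p = 0.122) and 0.41 (adjusted p = 0.156). Between the knockdowns, where 4.09% of all genes were called, 1 of the 11 passed, *Dnmt3a*, which was higher with Smarcc1 (0.63, adjusted p = 0.01996).

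*Dppa3* is a classical marker of primordial germ cells, and 8 further genes of those cells were examined. Of 7 tested, 4 fell and 0 rose by day 7 (median -0.76, all genes 0.08), where 28.8% of all genes fell and 35.7% rose. In either direction 64.5% of all genes were called, so only the number called regardless of direction is near the background. With Smarcc1 knockdown, where 7.54% of all genes were higher, 5 were higher, including *Kit* (1.62, adjusted p = 8.32e-05), *Alpl* (1.65, adjusted p = 0.000365) and *Tfap2c* (0.91, adjusted p = 0.000785). With Smarca4 knockdown, where 4.75% of all genes were higher, 3 were higher, including *Tfap2c* (0.84, adjusted p = 0.00235) and *Alpl* (1.09, adjusted p = 0.00975). *Kit*, the receptor of stem cell factor, alone of these 7 differed between the knockdowns (1.02, adjusted p = 0.00181), where 4.09% of all genes were called. *Nanos3*, a defining germ cell gene, was below the filter at 0.119 to 2.22 rpm, and *Dazl* was at 19.02 rpm or more in every library. The germ cell markers *Ddx4*, *Dazl*, *Nanos3* and *Dnd1* summed to 88.1 to 411 rpm in Nons, 116 to 740.0 rpm with Smarcc1 and 119 to 655 rpm with Smarca4 knockdown, and their part in the *Dppa3* result was not tested. Of the KH-domain relatives of *Dppa5a*, *Ooep* was the only one of 5 entries to pass the filter, and *Khdc1b* and *Khdc1c* had 0 reads in all 20 libraries.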

How the data were processed

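The authors trimmed 75-base single-end reads (trim_galore), used tophat or HISAT2 for alignment to mm10, and deposited a SeqMonk table of log2 rpm for each gene. The annotation release and the use of strand are not given in the sources used here. An entry without reads carries the value of 0.9 read in its library, from which whole reads were recovered (100% of values under 1000 reads lay within 0.05 of a whole number). Tests used limma 3.58.1 (trend, R 4.3.3) on the 13296 genes whose mean log2 rpm was 0 or more, fitting 12 group-by-day means, and genes were called at 0.05 after Benjamini-Hochberg adjustment. All 8 residual degrees of freedom are gaps between the hairpins of a group, from the Smarcc1 pair and the Smarca4 pair on each day. The members and the gene lists were chosen with earlier results of these data known. Genes named are the members, the 3 most correlated genes of each, entries within 100 kb, the targets, and up to 3 of lowest p in each list and comparison. A few list members and copies were added after their values were seen. Alternatives were other filters, 1 added to rpm, centring on the median gene, quantile normalization, limma-voom on recovered reads, a straight line over days, the hairpin series as replicate block and leaving out libraries. Hairpin numbers pair no samples across groups.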

Additional observations from a re-analysis of the deposited data

How the results depend on the processing

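Over the 13 alternatives, the members gave 508 values in comparisons averaged over or between days. Of these, 469 kept their direction and their side of the threshold, 30 changed side and 9 changed sign, and the causes were not tested. Among 384 values for single days, whose alternatives were added after the data were seen, 19 changed side and 0 changed sign. The 9 sign changes were in comparisons where the member had not passed, and no scaling turned a member's direction.

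On the log2 scale, *Dppa5a* between days 7 and 4 came to pass under centring (-0.72), quantile normalization (-0.49) and the replicate block (-0.55). *Dppa4* between days 5 and 4 did not pass under centring (-0.37) or quantile normalization (-0.28). *Dppa3* came to pass between days 6 and 5 with the block (0.58), and between days 7 and 6 under centring (-0.89), quantile normalization (-0.87) and the block (-0.69). *Dppa5a* came to pass under quantile normalization for Smarcc1 (0.71) and Smarca4 (0.60). *Dppa3* lost its call with a straight line over days for Smarcc1 (1.46) and Smarca4 (1.13), and for Smarca4 with the block (1.13). *Dppa4* lost its Smarca4 call under centring (0.54) and the block (0.62). The Smarcc1 minus Smarca4 difference in change of *Dppa4* turned to 0.033 with the straight line. On day 6 the Smarcc1 difference of *Dppa2* did not pass with a mean of at least 10 rpm (1.19), centring (1.04), quantile normalization (1.07) or limma-voom (1.20). On day 7 that of *Dppa4* did not pass with a mean of at least 10 rpm (1.13), centring (1.02) or quantile normalization (1.12), and the Smarca4 difference of *Dppa3* came to pass with the block (1.98). The correlation within a series estimated for the block was 0.217, and it changed no other call of a member. Against Nons, 605 genes were called for Smarcc1 and 258 for Smarca4 with the block, and 1412 and 892 without it.

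Leaving out a hairpin also cut the residual degrees of freedom from 8 to 4. Without a hairpin or the small day 5 library of Smarca4 hairpin 4, *Dppa4* ranged from -0.50 to -0.37 between days 5 and 4 and lost its call without Smarcc1 hairpin 7, either Smarca4 hairpin or the day 5 library, and from -0.56 to -0.48 between days 7 and 6, lost without Smarcc1 hairpin 6 or either Smarca4 hairpin. *Dppa2* ranged from -0.74 to -0.66 between days 7 and 6, lost without either Smarca4 hairpin. Between the same days *Dppa5a* ranged from -1.11 to -0.85, lost without Smarca4 hairpin 6, and *Dppa3* from -0.79 to -0.60, passing without Smarcc1 hairpin 7. Between days 6 and 5 *Dppa5a* ranged from -0.16 to 0.00089. For Smarca4 against Nons, *Dppa3* ranged from 0.85 to 1.42, lost without Smarca4 hairpin 6, and *Dppa4* from 0.56 to 0.68, lost without either Smarca4 hairpin. Between the knockdowns *Dppa2* ranged from -0.16 to 0.19 and *Dppa5a* from -0.23 to 0.31, and the difference in change of *Dppa4* from -0.10 to 0.0024. On single days the ranges were 0.98 to 1.41 for *Dppa2* with Smarcc1 on day 6 (lost without any of the 4 hairpins), 1.76 to 1.89 for *Dppa2* with Smarca4 on day 7 (lost without either Smarca4 hairpin), 2.37 to 2.61 for *Dppa3* (lost without Smarcc1 hairpin 6) and 1.02 to 1.23 for *Dppa4* with Smarcc1 on day 7 (lost without any of the 4 hairpins).

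The number of genes called ranged from 491 to 1797 for Smarcc1 against Nons (1412 as fitted) and from 258 to 1140 for Smarca4 against Nons (892 as fitted). Between the knockdowns it ranged from 43 to 1067 (544 as fitted). Between days 7 and 4 it ranged from 5538 to 10806 (8575 as fitted), and between days 7 and 6 from 1059 to 5112 (3656 as fitted). Over all genes, the median change between days 7 and 4 went under centring from 0.08 to -0.09 and between days 7 and 6 from 0.15 to -0.05, where the share of higher genes among those called went from 61.5% to 38.2%.

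No paired analysis across groups was possible because hairpin numbers name hairpins and mark no shared culture. Leaving out a Nons series could not be run with 1 library per day, and the straight line gives no value for daily steps or single days. Counting error covers each library's reads only.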
